A study of Drosophila melanogaster with 2 samples.

Results

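The genes described here encode Mediator and the general transcription factors of RNA polymerase II in Drosophila melanogaster. They were chosen by symbol from the protein-coding genes of the Ensembl annotation, and 62 of 13945 genes on the 6 assembled chromosome arms qualified. They comprised 29 Mediator genes, 15 TFIID genes including Tbp, 8 TFIIH genes, and 10 others for TFIIA, TFIIB, TFIIE, TFIIF, TFIIS and a testis form of TAF12.

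Binding of the zinc finger protein CG1792 was mapped by chromatin immunoprecipitation with sequencing (ChIP-seq) in whole embryos aged 0 to 24 h, of both sexes. All embryos came from a transgenic line that stably carried CG1792 with green fluorescent protein (GFP) at its C-terminus. The antibody was against GFP per the sample description, although the antibody field names CG1792. The 2 biological replicates, numbered 2 and 3, formed 1 group with no control library among the samples, so no conditions were compared. Signal from every cell type of the embryo was averaged, and no source used here gives the promoter that drives the fusion.

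Transcription of protein-coding genes starts when TFIID, through the TATA-binding protein and its associated factors (TAFs), recognises the core promoter. TFIIA and TFIIB stabilise that complex and place the polymerase, TFIIF arrives with it, and TFIIE and TFIIH open the DNA. Mediator carries the signal from activators at enhancers to this assembly, and its kinase module attaches reversibly to the rest. Most of these factors are general ones, used at many genes, while some TAFs have testis forms.

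A gene was called bound when a thresholded peak had its summit no further than 500 bp from at least 1 annotated start of the gene. Thresholded peaks were the 2892 regions that the authors kept with a limit on the irreproducible discovery rate, which scores how ranks repeat across replicates. They were also exactly the 2892 strongest of 30000 regions called on the pooled replicates, so a thresholded peak need not rank high in each replicate. The authors label the list of 30000 as peaks and background, so a pooled region outside the thresholded list may be background. The signal is the authors' strength of a region and ran from 66.97 to 1589 in the thresholded list, with a median of 100.6. Its scale is not stated, so it is compared only within a list, and ranks count from 1 for the strongest region. The lists give no read counts, so the depth of the libraries is unknown.

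Of the 62 genes, 18 were bound, or 29.0% (Wilson 95% interval 19.2% to 41.3%, which covers the counting of genes only). Over all protein-coding genes, 14.2% were bound. Mediator genes made up 10 of the 18 and general factor genes 8. The strongest was Ssl1 at rank 11, and the next was MED30 at rank 210. The median signal at bound members was 94.58, against 104.7 over all 1981 bound genes. Of the 18 peaks, 17 had the highest −log10 q-value in the list, 3.73, which 2672 of the 2892 thresholded peaks shared. No test of the gene list was made, and its counts are a description set beside those of all genes.

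**Figure D1:**
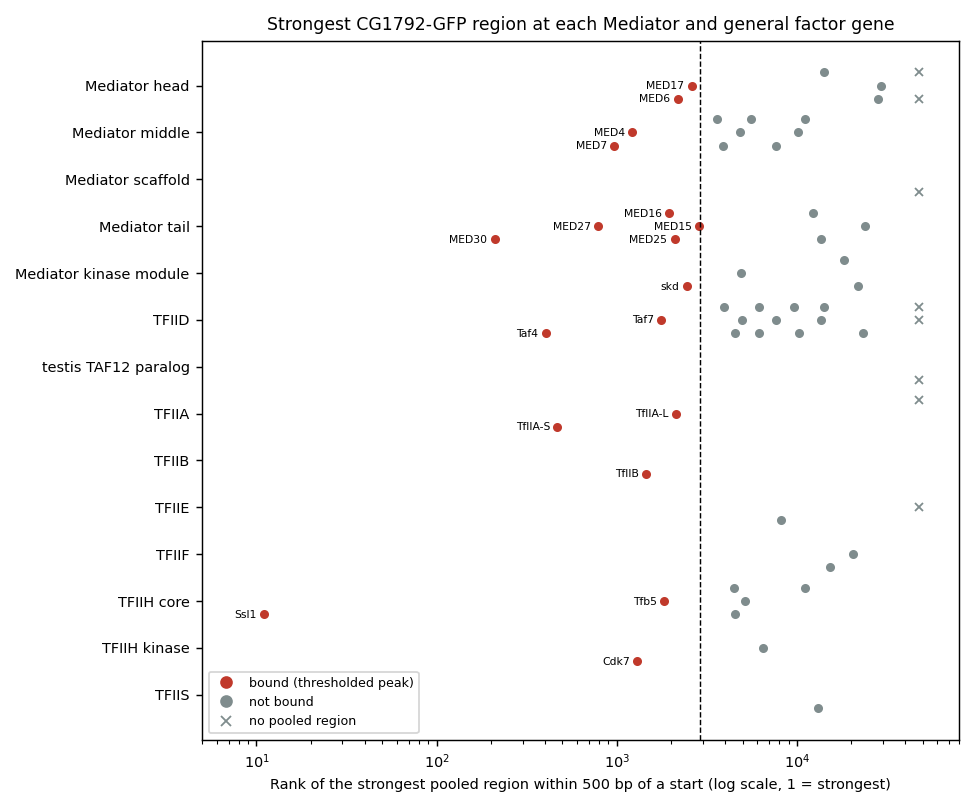
Rank of the strongest pooled region within 500 bp of a start (x axis, log scale) for each of the 62 genes, grouped by complex; points are spread vertically only for legibility. The dashed line marks rank 2892, left of which 18 genes were bound; Ssl1 lies at rank 11 and the 8 crosses are genes with no pooled region.

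The share of genes with a summit at a start was followed down the pooled list. With the 1446 strongest peaks, 8 members (12.9%) had one, against 7.60% of all genes. At rank 5784 the count was 29 members (46.8%), against 24.6% of all genes, and at rank 11568 it was 40 (64.5%), against 36.4%. Over all 30000 regions, background included, 54 members (87.1%) had a summit at a start, against 53.2% of all genes. Among genes with any such region, 18 of 54 members (33.3%) were bound, against 26.7% of all.

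**Figure D2:**
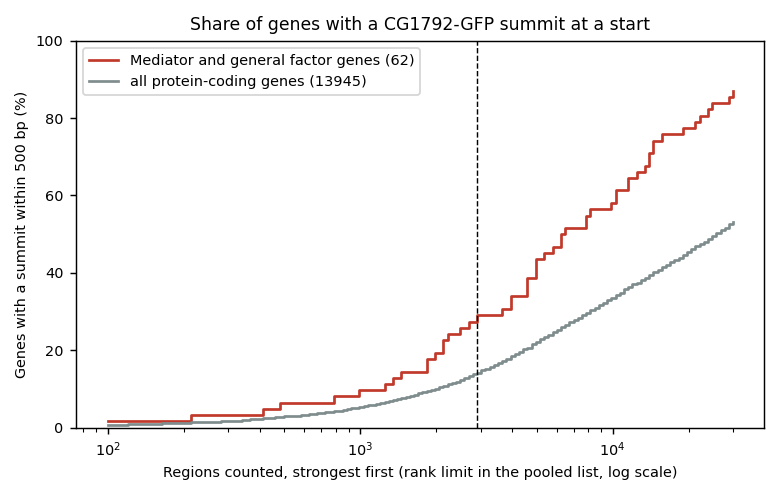
Percentage of genes with a summit within 500 bp of a start (y axis) as regions of the pooled list are added from the strongest (x axis, log scale). The red line of the 62 Mediator and general factor genes reaches 29.0% at the dashed line of rank 2892, where the grey line of all 13945 protein-coding genes reaches 14.2%.

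Most of these genes started near a second gene on the other strand. A protein-coding neighbour on the other strand, with its outermost start within 1000 bp and its body pointing away, was found for 43 members (69.4%), against 35.1% of all genes. The median distance between such starts was 164 bp for members, against 299 bp for all divergent genes. Among these divergent genes 15 of 43 members (34.9%) were bound, against 24.8% of all divergent genes. Without such a neighbour 3 of 19 members (15.8%) were bound, against 8.49% of all such genes. The part of gene arrangement in the higher share of bound members was not tested beyond these values.

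At the bound members themselves, 15 of 18 summits also lay within 500 bp of the start of another protein-coding gene (83.3%), against 56.7% over all bound genes. In all 15 cases 1 such neighbour was on the other strand, with 19 to 813 bp between the starts. The summit fell between the starts in 12 of them. The member's start was the nearer one at 7 genes and the neighbour's at 8. A peak in such a gap cannot be assigned to 1 of the genes. When each summit was given only to the protein-coding gene with the nearest start, 10 members (16.1%) were bound, against 10.5% of all genes. The 15 genes with a neighbour at the summit are not the same set as the 15 bound divergent members above. They include MED6, at an internal start near Naa80, and lack Taf4. At TfIIA-L the neighbour at the summit is pll and not the divergent gene TTLL6B.

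Summits lay upstream of the member's nearest start at 17 of 18 bound genes (94.4%, Wilson interval 74.2% to 99.0%), against 85.1% of all bound genes. The median position was −140.5 bp with quartiles of −196.8 and −67.75 bp, against −114 bp with quartiles of −203 and −39 bp over all bound genes. Most of the 18 summits lay in the space between genes (11), and the others lay in 5′ UTRs (4), introns of the member (2) or an antisense RNA exon (1).

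**Figure D3:**
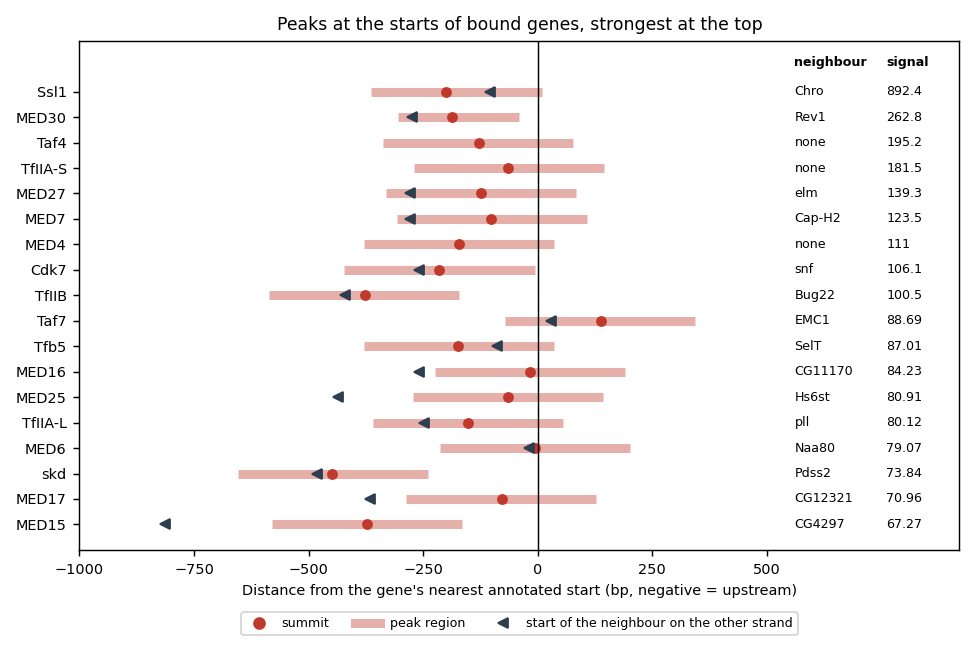
Summit (red dot) and region (pink bar) of the peak at each of the 18 bound genes, by distance in bp from the gene's nearest annotated start (x axis, negative values upstream), with the start of the neighbour on the other strand (dark arrowhead) and the pooled signal at the right. Summits are upstream at all genes but Taf7, and Taf4, TfIIA-S and MED4 have no coding neighbour on the other strand within reach of the summit.

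TFIIH unwinds promoter DNA and carries the kinase of the polymerase tail. Of its 8 genes chosen by symbol, 3 were bound (37.5%, against 14.2% of all genes). The partner genes mrn, which encodes a TFIIH subunit, and Mat1 lie outside the symbol rule, and of these mrn alone was bound. Ssl1 encodes a core subunit that regulates the Xpd helicase. Its peak on 3L (22878726 to 22879099) had a pooled signal of 892.4 at rank 11, with 442.9 (rank 12) in replicate 2 and 447.8 (rank 14) in replicate 3. The summit lay at −200 bp from the start of Ssl1 and 95 bp inside the neighbour Chro, in the 5′ UTR of that gene for the chromosomal protein Chromator. Cdk7, the kinase itself, had a peak on X (5308990 to 5309405) with a signal of 106.1 at rank 1304. Its signals were 57.14 in replicate 2 and 42.00 in replicate 3, at ranks 1036 and 2356. The summit lay at −215 bp from Cdk7 and −44 bp from snf, a gene for a spliceosomal RNA-binding protein. Tfb5, the smallest core subunit, shares its start with CG31917, and the peak on 2L (5010799 to 5011214, signal 87.01, rank 1831) marked both, as well as SelT on the other strand. Its signals were 38.88 in replicate 2 and 45.21 in replicate 3. At all 3 bound TFIIH genes chosen by symbol the neighbour's start was the nearer one.

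The unbound TFIIH genes all had a weaker region at a start. The DNA repair helicase genes hay and Xpd had pooled signals of 47.31 (rank 5187) and 51.56 (rank 4515). Tfb1 had 51.77 (rank 4487), with 35.4 at rank 2520 in replicate 2 and no region within 100 bp of the pooled summit in replicate 3. CycH, the cyclin of Cdk7, had 41.54 (rank 6468) and Tfb4 31.01 (rank 11165). Thus Tfb1 was among the 2892 strongest regions of 1 replicate and stayed outside the thresholded list.

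TFIIA and TFIIB, which bind next to the TATA-binding protein, had 2 of 3 TFIIA genes and the single TFIIB gene bound. The share over all genes was 14.2%, and these groups are very small. The TfIIA-S peak on 3R (23890916 to 23891331) had a signal of 181.5 at rank 468, with 70.46 in replicate 2 and 105.4 in replicate 3. Its summit lay at −64 bp with no other coding start in the window. TfIIA-L had 80.12 (rank 2136), with 21.72 at rank 7374 in replicate 2 and 57.61 at rank 1309 in replicate 3, the widest split of ranks among bound members with regions in both. That summit lay in an intron of TfIIA-L, at −152 bp from an internal start and −96 bp from pll, the Pelle kinase gene of the Toll pathway. TfIIB had 100.5 (rank 1451), with 45.26 in replicate 2 and 49.93 in replicate 3. Its summit lay at −378 bp, and at −42 bp from Bug22, a gene of cilia. TfIIA-S-2, a further TFIIA small subunit gene, had no pooled region.

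TFIID had 2 of 15 genes bound (13.3%), close to the 14.2% of all genes. Taf4, a histone-fold TAF at the centre of the complex, had a peak on 3L (16113453 to 16113868) with a signal of 195.2 at rank 403, and with 104.0 in replicate 2 and 98.60 in replicate 3. The summit lay in an intron, at −129 bp from an internal start and at 449 bp from the outermost start. Taf7, whose product binds Taf1, had 88.69 (rank 1773), with 58.59 at rank 984 in replicate 2 and no region within 100 bp in replicate 3. Its summit was the only one downstream, at 137 bp in the 5′ UTR, and at −107 bp from EMC1, an endoplasmic reticulum membrane gene that starts 30 bp from Taf7.

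The other TFIID genes ranged from moderate regions to none. Taf2 had 56.06 (rank 3931), Taf13 51.17 (rank 4566) and Taf1, the largest subunit, 48.92 (rank 4939). The paralogs Taf10 and Taf10b are a divergent pair with starts 45 bp apart, and 1 region of signal 42.87 (rank 6139) marked both. Tbp, the gene of the TATA-binding protein, had 32.42 (rank 10229) at −470 bp, inside a coding exon of its neighbour BaraC. Taf5 and Taf12 had no pooled region, nor had Taf12L, the testis form. TFIIE, TFIIF and TFIIS had no bound gene among 5: TfIIEalpha had 36.65 (rank 8133), TfIIS 28.53 (rank 13180), TfIIFalpha 26.32, TfIIFbeta 22.59, and TfIIEbeta had none.

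Mediator had 10 of 29 genes bound (34.5%), against 14.2% of all genes, and 5 of the 10 were in the tail, the module that many activators contact. The tail had 5 of 8 genes bound, the head 2 of 7, the middle 2 of 9 and the kinase module 1 of 4. With the strongest regions of replicate 2 alone, these counts were 4, 2, 2 and 0. With those of replicate 3 alone they were 2, 1, 2 and 1. The modules hold only genes chosen by symbol, so the partner gene ix is not counted. It was unbound (signal 23.28, rank 19358). MED14, the scaffold that joins the modules, had no pooled region. No test compared the modules, and the counts in each are small.

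In the tail, MED30 had the strongest peak of any Mediator gene, on 3L (654130 to 654395), with a signal of 262.8 at rank 210. It had 130.3 (rank 176) in replicate 2 and 134.1 (rank 240) in replicate 3, and its summit lay at −187 bp, and at −87 bp from Rev1, a translesion DNA polymerase gene. MED27 had 139.3 (rank 787), with 66.29 in replicate 2 and 78.07 in replicate 3, and a summit at −123 bp. These peaks held similar ranks in both libraries. MED25 had 80.91 (rank 2100), with 47.48 at rank 1488 in replicate 2 and 30.08 at rank 4226 in replicate 3. MED16 had 84.23 (rank 1948), with 53.79 at rank 1152 in replicate 2 and 36.28 at rank 3069 in replicate 3, and a summit at −16 bp. Both were thus among the 2892 strongest regions of replicate 2 only.

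MED15, an activator target of the tail, had a pair of thresholded peaks upstream. The one within 500 bp (2L, 472433 to 472848) lay at −372 bp with a signal of 67.27 at rank 2870, near the lowest of the list. It had no partner in replicate 2 and 31.08 (rank 3955) in replicate 3. A narrower and stronger peak overlapped its edge (472395 to 472498), at −577 bp from MED15 and 236 bp from CG4297, with a signal of 256.3 at rank 219. That peak had 108.1 (rank 267) in replicate 2 and 149.2 (rank 189) in replicate 3. The binding near MED15 was therefore strong and repeated, while the summit inside the window was weak. The unbound tail genes MED24, MED28 and MED23 had 29.43, 27.97 and 20.75.

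In the middle module, MED7 had a peak on 3R (10760925 to 10761340) with a signal of 123.5 at rank 972, and with 56.25 in replicate 2 and 72.59 in replicate 3. Its summit lay at −101 bp, and at −177 bp from Cap-H2, a condensin gene. MED4 had 111.0 (rank 1215), with 35.79 at rank 2461 in replicate 2 and 73.25 at rank 843 in replicate 3, and a summit at −172 bp in an antisense RNA gene. Both were among the strongest regions of each replicate. Below the limit, MED31 had 58.84 (rank 3628), the strongest of any unbound member, and MED19 had 56.31 (rank 3905). MED21 followed with 49.32 (rank 4853), in a coding exon.

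In the head, which contacts the polymerase, MED6 had 79.07 (rank 2179), with 42.60 at rank 1809 in replicate 2 and 32.79 at rank 3629 in replicate 3. Its summit lay at −7 bp from 1 of 5 annotated starts and at −12 bp from Naa80, an acetyltransferase gene whose start is 19 bp away. MED17 had 70.96 (rank 2609) at −79 bp, with 37.66 at rank 2255 in replicate 2 and 31.42 at rank 3899 in replicate 3. MED20 and MED8 had no pooled region. MED20 starts 47 bp from Trf, the gene of a TATA-binding protein relative, which lies on the other strand.

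Of the kinase module, skd, which encodes the Med13 subunit that docks the kinase, had 73.84 (rank 2452). Its signals were 28.54 at rank 3888 in replicate 2 and 44.62 at rank 2095 in replicate 3. The summit lay at −448 bp from skd and −33 bp from Pdss2, a coenzyme Q synthesis gene. The kinase gene Cdk8 had 49.00 (rank 4921), its cyclin gene CycC 23.97, and kto, the Med12 gene, 21.76.

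The replicates were then compared over these genes. When the 2892 strongest regions of each replicate were used, 16 members (25.8%) had a summit within 500 bp in replicate 2, against 14.3% of all genes, and 13 (21.0%) in replicate 3, against 13.7%. In both replicates 11 members (17.7%) did, against 10.6% of all genes. These 11 were Ssl1, MED30, Taf4, TfIIA-S, MED27, MED7, MED4, Cdk7, TfIIB, Tfb5 and MED17. Of the other bound members, MED6, MED16, MED25 and Taf7 were found in replicate 2 alone, skd and TfIIA-L in replicate 3 alone, and MED15 in neither. The unbound Tfb1 was also found in replicate 2 alone. MED17 counted in replicate 3 through a region at −242 bp, since the region matching its pooled summit ranked 3899 there.

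For 16 of the 18 bound members a region lay within 100 bp of the pooled summit in both replicates. Across these 16 peaks the signals had a Spearman rho of 0.60, and a Pearson r of 0.84 on log2 values, given as a description over peaks from the same pair of libraries. The log2 ratio of replicate 3 to replicate 2 ran from −0.66 at MED25 to 1.41 at TfIIA-L, with an SD of 0.57, against 0.52 over the 2753 thresholded peaks with both values. The thresholded list held the strongest pooled regions, whose signal draws on both replicates, so part of this likeness may be built in.

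**Figure D4:**
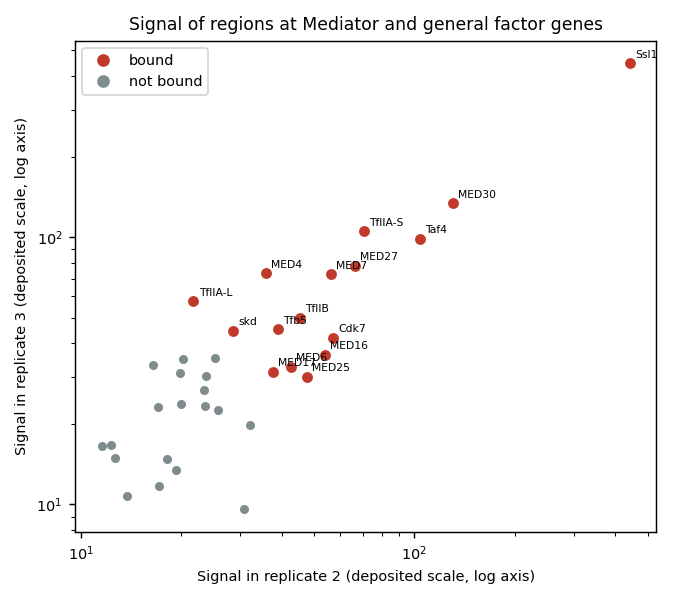
Signal of the region within 100 bp of the pooled summit in replicate 2 (x axis) and replicate 3 (y axis), both on the authors' scale and log axes, for members with a region in both. Ssl1 lies at 442.9 and 447.8, MED30 at 130.3 and 134.1, and the unbound genes lie at or below 32.23 in replicate 2 and 35.28 in replicate 3.

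Sequences under the summits were read from the RefSeq genome of the same assembly as dm6. They are printed 5′ to 3′ on the member's strand, with 50 bp on either side of the summit, for the strongest peak of Mediator (MED30) and of TFIID (Taf4), which held none of the elements in capitals, and for 4 peaks that did. Capitals mark Ohler 7 (CAGCNCTA, CAGCNCTG, CATCNCTA or CATCNCTG), the DNA replication-related element (DRE, TATCGATA) and CGATA, which overlaps the DRE, on either strand. For Ssl1, whose summit lies in a 5′ UTR, only 29 bp are given.
MED30, chr3L:654226-654326, minus strand: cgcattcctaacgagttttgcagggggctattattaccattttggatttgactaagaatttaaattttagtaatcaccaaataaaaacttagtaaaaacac
Taf4, chr3L:16113611-16113711, plus strand: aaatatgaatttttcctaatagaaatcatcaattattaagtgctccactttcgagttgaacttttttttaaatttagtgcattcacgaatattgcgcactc
TfIIA-S, chr3R:23891074-23891174, minus strand: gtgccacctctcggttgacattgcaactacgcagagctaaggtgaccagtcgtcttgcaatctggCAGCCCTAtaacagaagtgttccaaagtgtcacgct
MED25, chr3R:20008833-20008933, plus strand: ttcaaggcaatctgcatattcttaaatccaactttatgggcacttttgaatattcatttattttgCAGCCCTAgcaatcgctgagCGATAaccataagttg
skd, chr3L:21027832-21027932, minus strand: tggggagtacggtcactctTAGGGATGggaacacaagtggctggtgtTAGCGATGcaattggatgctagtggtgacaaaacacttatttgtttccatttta
Cdk7, chrX:5309148-5309248, minus strand: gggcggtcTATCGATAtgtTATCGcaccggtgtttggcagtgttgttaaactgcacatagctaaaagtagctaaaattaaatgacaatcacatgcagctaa
Ssl1, chr3L:22878875-22878903, plus strand: gggagtgtattgcctgtCGATAgctttaa

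Ohler 7, a core promoter element of genes active in most cells, was present in 5 of the 18 summit windows (27.8%), at MED16, MED25, skd, TfIIA-S and Tfb5, against 8.64% of all 2892 thresholded windows. TfIIA-S and MED25 held the same 8 letters, CAGCCCTA. The skd window held a pair of copies on the other strand, both of the form CATCNCTA and not identical to each other. CGATA was present in 4 windows (22.2%), at MED25, Ssl1, Tfb5 and Cdk7, against 18.8%, and the DRE in that of Cdk7 alone (5.56%, against 2.70%). The TATA box (TATAAA) was found at MED17 alone (5.56%, against 16.2%) and GAGAG at TfIIA-S alone (5.56%, against 12.0%). Ohler 1, Ohler 6, the Su(Hw) core and the E-box (CAGCTG) were in none of the 18 windows. GC content of the windows ran from 20.8% to 58.4%, with the same median of 35.6% as all thresholded windows. The 18 windows all lay within 500 bp of a coding start, while the 2892 were taken wherever peaks lay. The shares above therefore compare sets that differ in place.

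In promoters, taken from 250 bp before to 50 bp after the outermost start, Ohler 7 was as frequent at bound members (7 of 18, 38.9%) as at unbound ones (17 of 44, 38.6%), against 19.1% of all promoters and 34.3% of the promoters of all bound genes. Ohler 1, the site of the promoter factor M1BP, was in 2 bound promoters (11.1%) and 6 unbound ones (13.6%), against 4.50% of all. Ohler 6 was in no bound promoter and in 5 unbound ones (11.4%), against 2.23% of all, and the DRE was in 4 bound (22.2%) and 6 unbound ones (13.6%), against 9.36%. CGATA was present in 37 of the 62 promoters (59.7%, against 47.4%) and the TATA box in 28 (45.2%, against 45.8%). The E-box was in 12 (19.4%, against 17.7%), GAGAG in 9 (14.5%, against 29.7%) and the Su(Hw) core in 1 (1.61%, against 0.158%). By bound and unbound members, CGATA was in 66.7% and 56.8%, the TATA box in 55.6% and 40.9%, and GAGAG in 16.7% and 13.6%. The E-box was in 1 bound promoter (5.56%) and 11 unbound ones (25.0%), against 23.5% of the promoters of all bound genes. These differences were not tested. A match of letters is a description and not a binding site.

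**Figure D5:**
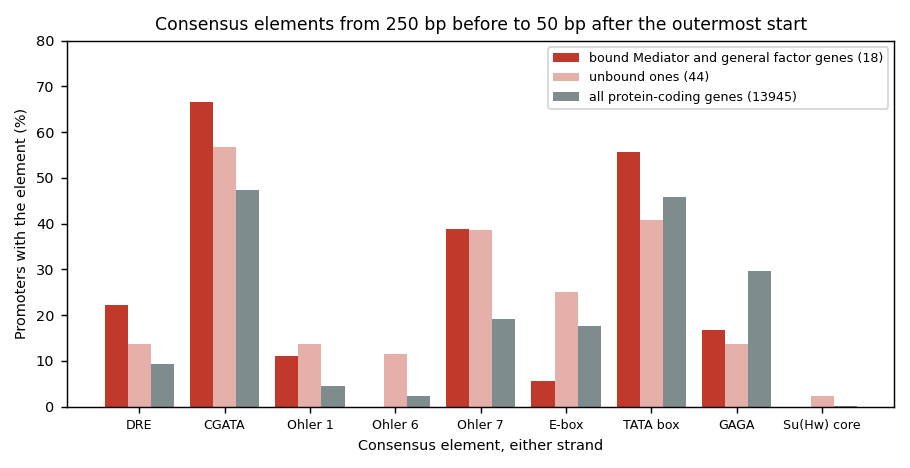
Percentage of promoters (y axis, bars from 0) that hold each of 9 consensus elements on either strand, for the 18 bound genes, the 44 unbound ones and all protein-coding genes. Ohler 7 stands at 38.9%, 38.6% and 19.1%.

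Most of the 44 unbound members had an entry in the pooled list, which holds background as well as peaks. A pooled region lay at a start of 36 of them (81.8%), against 45.4% of all 11964 unbound genes. The −log10 q-values there ran from 0.12 at MED22 to 2.91 at MED31, below the lowest of the thresholded list, 3.25. Which of these regions are background was not tested. The signals at these members ran from 18.30 to 58.84 with a median of 32.99, against a median of 33.00 over the 5433 unbound genes with a region. Of the 36, 11 ranked no lower than 5784 (30.6%), close to the 26.8% of those 5433 genes. These were MED31, MED19, Taf2, Tfb1, Xpd, Taf13, MED21, Cdk8, Taf1, hay and MED9. The 8 members with no region were MED8, MED14, MED20, Taf5, Taf12, Taf12L, TfIIA-S-2 and TfIIEbeta.

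The window changed the count little. Within 250 bp of a start 15 members (24.2%) were bound, against 11.5% of all genes, since MED15, skd and TfIIB lay further out. Within 1000 bp the same 18 (29.0%) were bound, against 16.5%. With the outermost start of each gene alone, 16 (25.8%) were, against 12.7%, and MED6 and TfIIA-L were lost because their peaks lay at internal starts.

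Genes that work with these factors but have other symbols were listed separately. Of 12 RNA polymerase II subunit genes 4 were bound (33.3%, against 14.2% of all genes): Polr2H (signal 209.1, rank 338), Polr2F (185.4, rank 442), Polr2B (96.98, rank 1534) and Polr2J. Of 16 genes of the SAGA coactivator, which shares TAFs with TFIID, 5 were bound (31.2%): the acetyltransferase gene Gcn5 (148.3, rank 696), Atxn7 (119.7, rank 1035), Ada3 (114.5, rank 1136), Spt7 and Sgf29. Of 20 elongation and pausing factor genes 7 were bound (35.0%), led by Atu, a Paf1 complex gene (532.3, rank 48), and by Nelf-E (322.4, rank 129) and Nelf-A (133.6, rank 850) of the pausing complex NELF. The other 4 were Ctr9, Cdk12, lilli and spt4. Of 9 further partners, among them ix, Mat1, Trf and Trf2, mrn alone was bound (11.1%), a TFIIH subunit gene with a signal of 67.9 at rank 2819.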

How the data were processed

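ChIP-seq peak lists of 2 replicates were analysed. The deposited library listing says that the authors called regions, with a control alignment as background, for either replicate and for both pooled (30000 regions in each list), and kept 2892 by the irreproducible discovery rate. The deposited signal is the caller's strength of a region on an unstated scale, and the deposited −log10 q-value was only described. The aligner and the caller are named by no source used here. The dm3 lists and the control were not analysed here.

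Genes came from Ensembl release 115 on the dm6 assembly. All regions and genes lay inside the chromosome lengths of the RefSeq genome. Positions are 1-based. Summits, from the deposited offsets, were matched between lists within 100 bp. Shares have Wilson 95% intervals, and no test was made, since there is 1 group. The lookup was tested on simulated summits. Python 3.11.15, numpy 2.4.6, scipy 1.17.1 and matplotlib 3.10.9 were used.

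The members and lists were chosen with earlier results of these data known. The symbols Taf3, Taf9, Taf12L, Atu and Hexim were placed, and mrn was added, after the annotation was seen. Every bound member was named, the 8 strongest unbound ones, those with no region, and every bound gene of the other lists. Further unbound members were named after their values were seen.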

Additional observations from a re-analysis of the deposited data

How the results depend on the processing

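Counts of bound members fell by more than 1.5 times in a few settings. With the 1446 strongest peaks the counts were 8 of 62 members, 4 of 29 for Mediator, 1 of 15 for TFIID and 1 of 10 for the other general factors. The share of all genes fell as well in that setting, from 14.2% to 7.60%. With the nearest start only the counts were 10 of 62 in all, 1 of 15 for TFIID, 0 of 8 for TFIIH and 1 of 10 for the other general factors. Over all genes the share was 10.5% in that setting. With 1 replicate left out the counts ran from 13 to 16 in all, 6 to 8 for Mediator, 1 to 2 for TFIID, 3 to 4 for TFIIH and 2 to 3 for the other general factors. Over all genes the share was 13.7% without replicate 2 and 14.3% without replicate 3. Without replicate 2, MED6, MED15, MED16, MED25 and Taf7 were lost. Without replicate 3, MED15, skd and TfIIA-L were lost and Tfb1 was gained.

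The median pooled signal of bound members, 94.58, was 106.1 with 250 bp, 103.3 with 1000 bp or the outermost start, 160.4 with the 1446 strongest peaks, and 103.3 to 111.0 with 1 replicate left out. The rise to 160.4 follows from keeping the stronger peaks. The medians with 1 replicate left out are of pooled signals, which still draw on both replicates. The upstream share was 100% with the 1446 strongest peaks and with the nearest start only, and 87.5% to 100% with 1 replicate left out. On the strand of the gene only, CGATA was in 45.2% of member promoters, the TATA box in 29.0% and the Su(Hw) core in 0.00%. Within 50 bp of the summit of bound members, where fewer bases were read, shares were 22.2% for CGATA, 5.56% for the DRE, the TATA box and GAGA, and 0.00% for Ohler 1, Ohler 6, the E-box and the Su(Hw) core.

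The depth of the libraries is unknown, so how far it limits the unbound members cannot be said. No paired analysis was possible because there is 1 group.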

Other observations

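Members with several annotated starts were bound more often than those with 1 start, 6 of 11 (54.5%) and 12 of 51 (23.5%). The same held over all genes, 24.6% and 10.5%. A gene with more starts has more windows in which a summit can fall, and the difference was not tested. By arm, 8 of 15 members on 3R were bound (53.3%, against 15.9% of all genes there), 5 of 20 on 3L (25.0%, against 14.9%), 3 of 11 on 2L (27.3%, against 13.9%), 1 of 8 on 2R (12.5%, against 13.4%), 1 of 6 on X (16.7%, against 12.6%) and 0 of 2 on chromosome 4 (against 5.00%). The differences between arms were not tested.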
